A study of Mus musculus with 10 samples.

Results

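Reduced representation bisulfite sequencing (RRBS) counted methylated and unmethylated reads at CpG cytosines in spermatozoal DNA of 10 C57Bl/6 mice. The CpGs described here were chosen by their level: autosomal CpGs covered by 20 or more reads in all 10 animals, strands summed, whose share of methylated reads lay between 30% and 70% in every animal. Of 628550 autosomal CpGs with enough reads, 3382 met this rule, which is 0.538%. A further 28774 CpGs had a mean level inside the same band but left it in 1 or more animals, and they served as the closest comparison. The level itself, its mean near 50% and its limited spread were therefore set by the choice and are given as description only.

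The P-generation consisted of 2 animals injected with the vehicle, 7.5% DMSO (C8 and C14), and 3 animals injected with decitabine at 0.1 µg per g body weight in that vehicle (D10, D11 and D13). Injections began at 7 weeks of age and were given on 3 days a week over 7 weeks. The F3-generation received no treatment and consisted of 2 descendants of the vehicle line (F3C9 and F3C30) and 3 of the decitabine line (F3D1, F3D7 and F3D31), where F3D1 and F3D31 share the ancestor D10. Each library came from 1 animal. Decitabine is a deoxycytidine analogue that traps DNA methyltransferases. Total reads at CpG cytosines ran from 48903817 in D13 to 115158278 in F3D1, and at the intermediate CpGs the median coverage per animal ran from 50 to 132 reads. At 50 reads, the 95% Wilson interval around a level of 50% reached from 36.6% to 63.4%, which covers counting error only. At 9 gene starts of maternally methylated imprinted genes, which are unmethylated in sperm, the median level per animal was 6.92% to 21.8%, with the highest value in C8. Single genes differed. C8 was the highest animal at Mcts2 (34.2%), Nap1l5 (33.3%), Peg3 (37.5%) and Igf2r (24.5%). D11 was the highest at Nnat, Peg10 and Zrsr1, F3C9 at Grb10 and F3D7 at Inpp5f. At Mcts2 D11 had 16.5%, and Peg10 had 0% in C8 and 32.7% in D11. At 3 paternally methylated genes, H19, Meg3 and Rasgrf1, the median was 5.28% to 23.2%, again with the highest value in C8. Such genes carry methylation in sperm, but whether these windows at gene starts cover the methylated regions was not tested. How far the windows measure the share of other cells was not tested either. The paper reported a high purity of randomly chosen sperm samples of the P-generation. The part of other cells in the intermediate levels was not tested.

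In mammalian sperm most CpGs are either methylated, as in introns and between genes, or unmethylated, as in CpG islands at gene starts. A level near the middle can arise when molecules of 1 sample differ, as in imprinted genes of somatic cells, where 1 parental copy is methylated. RRBS reads start at CCGG, the recognition sequence of MspI, and end repair of the cut fragments fills in new cytosines at their 3′ ends, which carry no methylation of the animal; trimming is meant to remove them. A CpG is the same on either strand of DNA, and maintenance methylation normally keeps both cytosines of a CpG in the same state.

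The intermediate CpGs fell into separate kinds when the strands were read apart. Of the 3382 CpGs, 2324 had at least 100 reads on each strand, summed over the animals. In 1136 of these CpGs (33.6% of all intermediate CpGs) the strands differed by 50 percentage points or more, in 115 by 20 to 50, and in 1073 by less than 20. The remaining 1058 were read mainly on one strand. In the strand-divergent CpGs the lower strand had a median level of 3.59% and the higher strand 95.6%, so that the intermediate level was a sum of a nearly unmethylated and a nearly methylated strand. Among all tested CpGs only 0.488% were strand-divergent. The plus strand was the lower one in 572 and the minus strand in 564 CpGs.

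**Figure D1:**
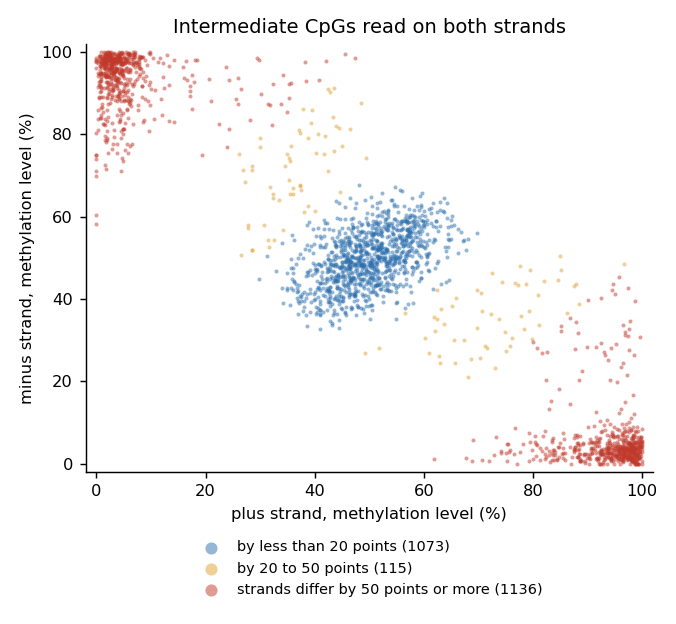
Methylation level on the minus strand (%, vertical axis) against the plus strand (%, horizontal axis) for the 2324 intermediate CpGs with at least 100 reads on each strand, summed over 10 animals, 1 point per CpG. The 1136 strand-divergent CpGs lie in the upper left and lower right corners and the 1073 CpGs with a strand difference under 20 percentage points lie along the diagonal.

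Nearly all strand-divergent CpGs had 1 position in common. Of the 1136, 1134 were the CpG of a CCGG site, and in 1108 the neighbouring CCGG site lay 49 or 50 bp away on the side from which the lower strand is read. A further 25 had that neighbour at 48 bp or less and 1 had it farther away. Over all tested CCGG CpGs with both strands read, 3050 of 86000 (3.55%) were strand-divergent, against 20 of 212385 (0.00942%) of the CpGs outside CCGG. Of the 1073 CpGs with shared strands, 5 had a CCGG neighbour at 49 or 50 bp, and of the 1058 read mainly on one strand 4 had one. Of the 115 with a strand difference of 20 to 50 percentage points, 85 had one, and these remain among the 2246 CpGs that are not counted as strand-divergent. Among all tested CCGG CpGs with the next site on the other side over 300 bp away, those with more than 80% on the strand that starts at the site were followed by distance. The strand read toward the site from the neighbour had a median level of 3.14% to 3.47% at 49 and 50 bp, in 473 and 423 CpGs on the plus and 488 and 445 on the minus strand. At 44 to 48 bp it was as low, with medians of 0% to 1.96%, but only 1 to 9 CpGs entered per distance and strand. At 51 and 52 bp, 0 CpGs had enough reads on both strands to enter. The part of filled-in end bases in these levels was not tested.

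The following sequences are shown because they carry this geometry, with a strand-divergent intermediate CpG at either end. They are the pairs whose least covered end had the most reads among those that occur once in the genome and lie outside repeats, all given as the plus strand of GRCm38, with the CCGG sites in capitals. Pair 1 lies at chr11:60203799-60203852, pair 2 at chr4:149883300-149883352 and pair 3 at chr2:167643947-167644000.
Pair 1: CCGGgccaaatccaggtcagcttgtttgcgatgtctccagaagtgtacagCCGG
Pair 2: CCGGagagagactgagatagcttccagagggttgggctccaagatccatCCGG
Pair 3: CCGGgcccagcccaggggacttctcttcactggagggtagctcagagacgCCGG

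In pair 2 the first CpG had a plus strand level of 96.5% and a minus strand level of 5.17%, and the last CpG had 3.70% and 97.7%. With the strands summed, the first CpG had 37.7% in C8, 45.9% in C14, 51.2% in D10, 51.3% in D11, 42.2% in D13, 49.5% in F3C9, 51.5% in F3C30, 63.6% in F3D1, 54.4% in F3D7 and 49.5% in F3D31. The plus and minus strand levels of pair 3 were 93.6% and 4.88% at the first and 4.29% and 94.7% at the last CpG. Pair 1 was less extreme, with 80.8% and 28.1% at the first and 35.2% and 88.9% at the last CpG. The strand that is low is thus opposite at the ends of a pair. This held in all 312 pairs of strand-divergent intermediate CpGs that lay 49 or 50 bp apart, in which the minus strand was low at the first and the plus strand at the last CpG.

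The ends of such a pair moved in opposite directions between animals. Across the 10 animals, the deviations of pairs of strand-divergent CpGs 21 to 50 bp apart were correlated with a median r of -0.779 over 313 pairs, and 2.88% of the pairs had a positive r. The mean levels of the ends had an r of -0.333 over the 312 pairs. For strand-divergent CpGs 100001 to 200000 bp apart the median r was 0.042. These correlations are over 10 samples that share reads between the CpGs of a pair. The level of a strand-divergent CpG followed the share of its reads that came from the higher strand, which was 50% at the median and differed from the level by a median of 2.67 percentage points.

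The CpGs around the strand-divergent ones were methylated. Tested neighbours within 50 bp that were not strand-divergent themselves had a median level of 92.6% around 604 strand-divergent CpGs, and 92.1% of these CpGs had neighbours above 70% on average. At 101 to 200 bp the median was 93.4%. Around the other 2246 intermediate CpGs, the neighbours within 50 bp had a median of 50.9%, and at 86.3% of the 1800 CpGs with such neighbours their mean was between 30% and 70%. Their neighbours' median was 50.5% at 51 to 100 bp, 49.5% at 101 to 200 bp, 44.5% at 201 to 500 bp and 36.2% at 501 to 1000 bp. At 501 to 1000 bp, 35.3% of the CpGs still had intermediate neighbours, and 41.5% had neighbours below 30%. At 1001 to 5000 bp the median was 59.6%, and 44.8% had neighbours above 70%. CpGs that were intermediate on average only had medians of 50.3% within 50 bp and 36.9% at 501 to 1000 bp, but fewer of them had intermediate neighbours, with 72.2% within 50 bp and 63.9% against 82.7% at 51 to 100 bp. Neighbours within 50 bp are in part read on the same molecules.

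**Figure D2:**
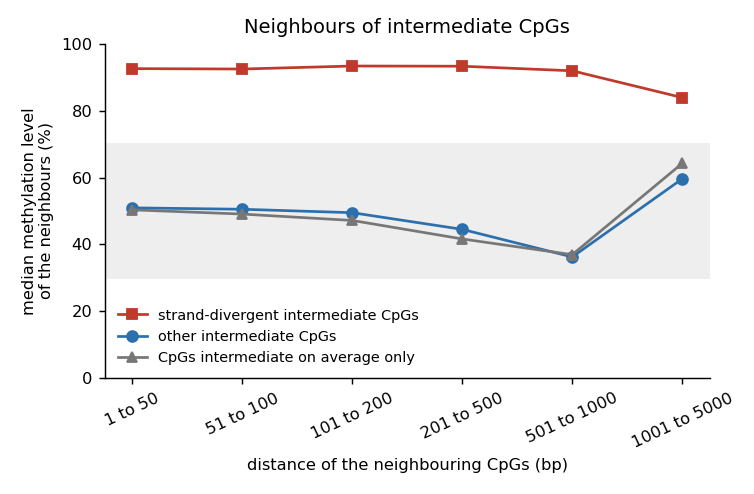
Median methylation level (%) of tested, not strand-divergent neighbours by distance (bp) around 1136 strand-divergent intermediate CpGs (squares), the other 2246 intermediate CpGs (circles) and CpGs intermediate on average only (triangles), with the band of 30% to 70% shaded. Neighbours of the strand-divergent CpGs have medians of 84.0% to 93.4%, and those of the other intermediate CpGs go from 50.9% within 50 bp to 36.2% at 501 to 1000 bp and 59.6% at 1001 to 5000 bp.

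For 161 of the 2246 other intermediate CpGs, tested CpGs were available on both sides at 101 to 1000 bp. In 125 of them (77.6%) at least 1 side was intermediate itself, 23 (14.3%) had a methylated side and an unmethylated side, 10 had both sides methylated and 3 both sides unmethylated. The mean of the tested CpGs on a side was used. A choice on 1 strand could be read on the other. Of 151590 CpGs with 20 or more reads on each strand in all 10 animals, 218 were intermediate in every animal on the plus strand, and the minus strand mean was inside the band at 194 of them (89.0%). Of 227 chosen on the minus strand, the plus strand mean was inside it at 187 (82.4%). In every animal and on either strand, 30 CpGs were intermediate. Intermediate CpGs came in groups: 42.7% had another one within 100 bp, and 34.8% when the strand-divergent CpGs were left out. Within 50 bp, 24.9% of the 6615 tested neighbours were intermediate in every animal as well, against 0.538% of all tested CpGs. Nearby intermediate CpGs also moved together between animals. Those within 50 bp are in part read on the same molecules and so share counting error, and its part in the correlations was not tested. Pairs that were not strand-divergent had a median r of their deviations over the 10 animals of 0.634 at 1 to 20 bp (234 pairs) and 0.519 at 21 to 50 bp (258 pairs). It was 0.156 at 51 to 100 bp (96 pairs), 0.204 at 101 to 200 bp (79 pairs), 0.163 at 201 to 500 bp (54 pairs), 0.426 at 501 to 1000 bp (25 pairs) and 0.0597 for pairs 100001 to 200000 bp apart (478 pairs).

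Intermediate CpGs were found away from gene starts. Only 172 (5.09%) lay within 1000 bp of a protein-coding gene's start in the GENCODE annotation, where 59.97% of all tested CpGs lay. Between genes lay 41.0% of them against 13.6% of all tested CpGs, in introns 30.7% against 13.8%, and in coding exons 14.2% against 7.88%. The CpGs that were intermediate on average only were spread in nearly the same way, with 6.55% at gene starts, 38.6% between genes, 29.5% in introns and 14.95% in coding exons. The strand-divergent CpGs had fewer at gene starts (1.06%) and more in introns (41.9%) than the other intermediate CpGs, which had 7.12% at gene starts and 24.98% in introns. When gene starts were limited to 250 bp before and 50 bp after the start, 0.887% of the intermediate CpGs and 20.1% of all tested CpGs lay there. With this narrower window the differences in introns and coding exons did not hold: introns held 31.9% of the intermediate against 30.9% of all tested CpGs, and coding exons 15.6% against 16.5%. The difference between genes remained, with 41.7% against 16.2%.

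**Figure D3:**
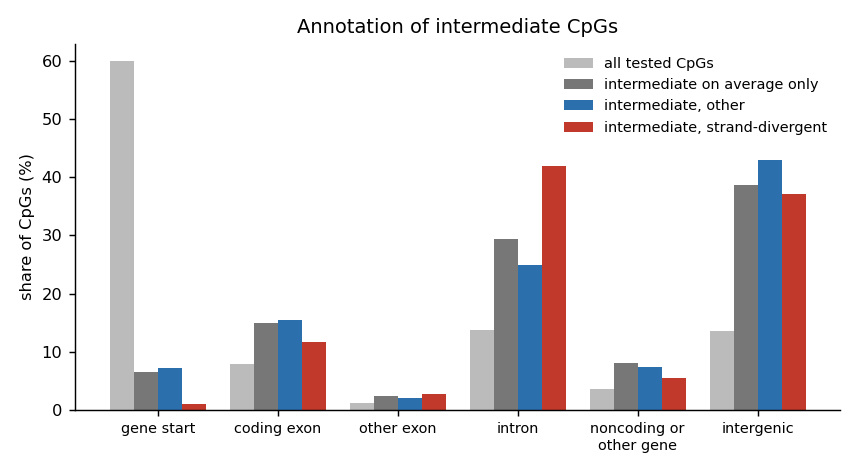
Share of CpGs (%, vertical axis) in each annotation class for all 628550 tested CpGs, 28774 CpGs intermediate on average only, and the 2246 other and 1136 strand-divergent intermediate CpGs. Gene starts hold 59.97% of all tested CpGs, 7.12% of the other and 1.06% of the strand-divergent intermediate CpGs.

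Their sequence surroundings were poor in CpGs. Within the 502 bases around an intermediate CpG the median number of CpGs was 11, against 39 around all tested CpGs and 12 around those intermediate on average only. The median GC content was 51.4% against 64.1% of all tested CpGs. CCGG sites made up 66.4% of the intermediate CpGs, 49.4% of those that were not strand-divergent, 57.9% of those intermediate on average only and 32.4% of all tested CpGs. In the reference sequence, 14.5% of the intermediate CpGs were marked as repeats against 6.50% of all tested CpGs, and for 3.55% against 1.37% the surrounding 42 bases occurred more than once. Every autosome held some, from 0.439% of the tested CpGs of chromosome 6 to 0.633% of chromosome 10.

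At 15 intermediate CpGs the coverage was over 5 times the animals' median. The highest, chr11:3193385 near a start of Sfi1, a centrosome gene, had 4193 to 9591 reads, 92.6 times the median, and a level of 60.02% to 65.7%. It had the lowest SD of all intermediate CpGs, 1.84 percentage points, although counting error alone gave 0.625. Of the other 14, 5 lay near Sfi1 and 6 in coding exons of Eef2, the translation elongation factor, with 359 to 1237 reads at the Eef2 CpGs. The 42 bases around 12 of the 15 CpGs occurred once in the reference sequence, that of chr11:3193385 included.

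The 3382 CpGs formed 2543 clusters when CpGs at most 500 bp apart were joined. Of these clusters 1859 held 1 CpG, 581 held 2, 68 held 3, 24 held 4 and 11 held 5 to 7. Of the 35 clusters with 4 or more CpGs, 1 contained a CpG classed as strand-divergent, and CpGs read mainly on one strand could not be classed. The 12 clusters described are the 11 with 5 or more CpGs and the first, by chromosome and position, of the 24 with 4. The 5 of them whose intermediate CpGs all lie within 100 bases are shown so that their spacing can be seen. They are given as the plus strand of GRCm38, with intermediate CpGs in capitals and other CpGs in lower case. Cluster 1 lies at chr4:46581721-46581792, cluster 2 at chr1:107526961-107527058, cluster 7 at chr2:23680134-23680204, cluster 8 at chr4:44508603-44508674 and cluster 10 at chr8:122720545-122720605.
Cluster 1: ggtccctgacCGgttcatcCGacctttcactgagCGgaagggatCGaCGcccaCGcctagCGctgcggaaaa
Cluster 2: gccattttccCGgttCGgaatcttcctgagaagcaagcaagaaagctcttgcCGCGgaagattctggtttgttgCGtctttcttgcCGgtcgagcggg
Cluster 7: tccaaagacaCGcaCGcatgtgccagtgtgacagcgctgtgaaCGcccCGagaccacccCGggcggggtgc
Cluster 8: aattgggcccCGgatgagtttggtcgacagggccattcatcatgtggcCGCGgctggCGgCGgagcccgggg
Cluster 10: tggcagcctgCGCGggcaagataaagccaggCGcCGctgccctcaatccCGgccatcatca

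Cluster 1, the largest with 7 CpGs within 52 bases, lay in an intron of Coro2a, which encodes an actin-binding coronin, and all 7 tested CpGs of this stretch were intermediate. In the P-generation its mean level was 50.4% and 48.3% in the vehicle animals C8 and C14, and 62.6%, 49.2% and 52.1% in D10, D11 and D13. The F3-generation had 51.4% and 55.2% in F3C9 and F3C30, and 52.4%, 49.7% and 54.4% in F3D1, F3D7 and F3D31. Apart from D10, the animals lay between 48.3% and 55.2%, and the groups overlapped in either generation. Cluster 2, in an intron of Serpinb2, an inhibitor of plasminogen activators, was a repeat: the sequence around 4 of its 6 CpGs occurred 7 to 144 times in the genome, and around the other 2 once. Cluster 10, between 43.3% and 51.2% in all animals, had the smallest spread of the 12 clusters (SD 2.61 percentage points over 10 animals).

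Of the 12 clusters, 4 lay in coding exons. They were found in Igsf8, a membrane protein of the immunoglobulin superfamily, in Tmem259, a membrane protein, in Gata3, a transcription factor of T cells, and in Apc2, a relative of the tumour suppressor Apc. The Igsf8 cluster, with 6 CpGs, had the widest spread of the 12 (SD 10.1 percentage points). Its mean level was 65.5% and 51.6% in C8 and C14, against 35.7%, 44.2% and 35.4% after decitabine in D10, D11 and D13. The groups of the P-generation did not overlap there, with a difference of -20.1 percentage points for decitabine minus vehicle. The F3 vehicle line had 58.7% in F3C9 and 48.7% in F3C30, against 58.8%, 48.7% and 41.3% in F3D1, F3D7 and F3D31, with overlapping groups. Of its 6 CpGs, 0 passed the call rule given below in either generation.

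Cluster 8, which lay 201795 bp from the nearest gene start, that of Pax5, a transcription factor of B cells, showed its difference in the F3-generation. The decitabine line had 52.1% in F3D1, 65.8% in F3D7 and 61.1% in F3D31, and the vehicle line 41.0% in F3C9 and 50.1% in F3C30. The difference was 14.1 percentage points, and 0 of the 5 CpGs were called. In the P-generation the order was mixed, with 41.0% and 55.6% in the vehicle animals and 44.02%, 39.1% and 55.9% in the decitabine treated animals. Over these 12 clusters, the mean levels of the groups did not overlap in 3 for the P-generation (clusters 3, 4 and 9) and in 4 for the F3-generation (clusters 8, 9, 11 and 12). Over all 684 clusters of 2 or more CpGs the groups did not overlap in 22.5% and 17.5%, so the 12 do not stand apart. Of the 35 clusters with 4 or more CpGs, 8 (22.9%) were free of overlap in the P-generation, 5 higher and 3 lower after decitabine. In the F3-generation 6 (17.1%) were, all 6 higher in the decitabine line. These shares are close to those of all 684 clusters, where both directions occurred. There, 58 were higher and 96 lower in the P-generation, and 74 higher and 46 lower in the F3-generation. Cluster 9 was at Morn3, where the F3 animals had 46.6% and 40.7% in the vehicle line and 48.5%, 52.5% and 54.5% in the decitabine line. These counts were made after the values were seen and were not tested. Cluster 5, at 1274 bases the longest, had a coverage of 3.58 times the median.

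**Figure D4:**
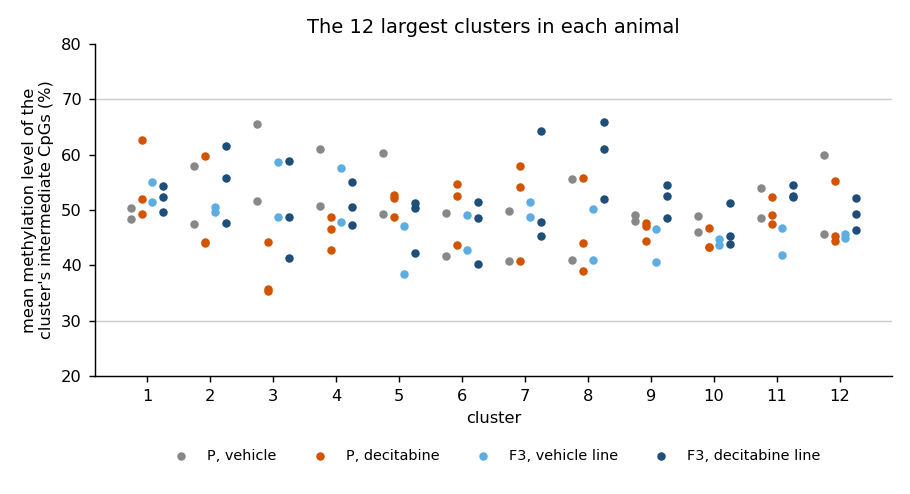
Mean methylation level (%) of the intermediate CpGs of each of the 12 largest clusters (horizontal axis) in the 10 animals, 1 point per animal, coloured by group, with lines at 30% and 70%. The groups do not overlap for the P-generation in clusters 3 (Igsf8, 35.4% to 65.5%), 4 and 9, and for the F3-generation in clusters 8, 9, 11 and 12.

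At gene starts, Morn3, a gene with MORN repeats, had the most intermediate CpGs with 5 of 14 tested CpGs, at 47.9% on average. It was followed by Gm11116, Gm34653, Krt79, Plec and Shank2 with 4 each and by Gm45844, Klk9 and Tinagl1 with 3 each. Abca13 is 1 of 19 genes with 2. Krt79 encodes a keratin, Plec the cytolinker plectin and Shank2 a scaffold of synapses. At the starts of Plec most tested CpGs were low, with a median of 8.91% over 45 CpGs, and the 4 intermediate CpGs had 50.9%. In Krt79 and Morn3 the median over all tested CpGs near the starts was intermediate too, at 49.8% and 48.01%. None of these CpGs was classed as strand-divergent, but those read mainly on one strand, as 3 of the 5 at Morn3, could not be classed.

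Of all 376930 tested CpGs at gene starts, 172 (0.0456%) were intermediate, so that few could be found in any list of genes. In the lists examined the numbers were 0 of 610 tested CpGs at 36 imprinted genes, 0 of 489 at 12 genes of DNA methylation enzymes, 0 of 216 at 13 piRNA genes, 0 of 314 at 20 germ-cell and meiosis genes and 0 of 1054 at 37 Hox genes. Among 283 zinc finger (Zfp) genes, 2 of 6701 tested CpGs were intermediate (0.0299%), 1 each at Zfp335 and Zfp750. At the start of Zfp335 the median level was 0% over 69 CpGs. Zfp750 had a median of 43.2% over 2 CpGs. The maternally and paternally methylated genes read for other cells held 0 of 153 and 0 of 21. At these numbers of CpGs the counts do not set the lists apart from other gene starts. Outside the lists, and named after their values were seen, the germ-line gene Tex19.1 had 1 intermediate CpG of 10 tested, at 61.3%, and Gapdhs, the sperm form of a glycolytic enzyme, had 2 of 3, at 54.9%.

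Whether the state is stable between generations was read in animals that had not entered the choice. In the P-generation alone, 7047 CpGs were intermediate in all 5 animals, and 3382 of them (47.99%) were so in all 5 F3-generation animals as well. Per F3 animal, 77.5% (F3D7) to 84.2% (F3D1) of them were intermediate. The mean of the F3-generation lay between 30% and 70% for 88.6% of them. Conversely, 9094 CpGs were intermediate in the 5 F3-generation animals and 37.2% of them in all 5 P-generation animals. In single P animals this was the case for 63.5% (C8) to 92.2% (C14), and the mean of the P-generation lay within the band for 95.1%. The shares of strand-divergent CpGs that were kept were larger: 76.4% of 1487 from P to F3 and 57.2% of 1986 from F3 to P, against 40.4% of 5560 and 31.6% of 7108 of the other CpGs. Coverage differed too. Among the 3382 CpGs, the median per animal was 55 to 148.5 reads at strand-divergent CpGs and 46 to 115 at the others. The share kept from P to F3 over all CpGs rose to 54.8% and 61.43% at 30 and 50 or more reads. The part of coverage in the difference was not tested.

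C8 stood apart. When the CpGs were chosen by the other 9 animals, 65.9% of 5133 were intermediate in C8, whereas for the other animals this share was 84.03% to 94.97%. Among the CpGs that were not strand-divergent, 62.2% were kept in C8 and 24.8% were above 70% there. C8 was the animal farthest from the CpG's mean at 20.9% of the 2246 other intermediate CpGs, the highest share of the 10 animals. Its median coverage at all intermediate CpGs was 63 reads, against 50 in D13 and 60 in F3D7. At the 2246 other intermediate CpGs C8 had 56 reads, against 46 in D13, 60 in D11 and 62.5 in F3D7. At these CpGs the root mean square deviation from the CpG's mean, relative to counting error, was 1.725 in C8. In the other animals it ran from 1.294 (D13) to 1.618 (F3C9). C8 also had the highest medians at the imprinted gene starts given above. The part of coverage or of other cells in this was not tested. When C8 was also left out of the limit on reads, 5511 CpGs met the rule, 27.8% of them strand-divergent, and the share kept from F3 to P was 55.0% in place of 37.2%.

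**Figure D5:**
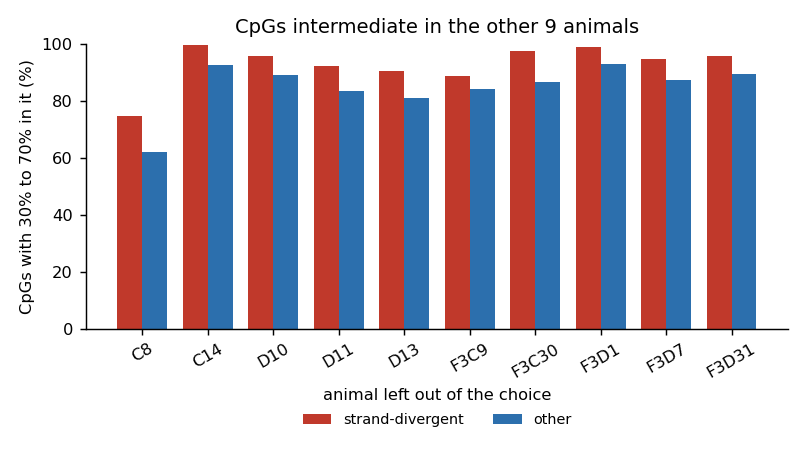
Share of the CpGs that were intermediate in 9 animals and also had 30% to 70% (%, vertical axis) in the animal left out of the choice (horizontal axis), for strand-divergent and other CpGs. C8 is the lowest with 74.6% and 62.2%, and the other animals lie between 81.1% and 99.5%.

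The pairs of ancestor and descendant spanned nearly the whole range of likeness between animals. Across the 2246 CpGs that were not strand-divergent, Pearson's r between animals ran from -0.00901 to 0.449 over 45 pairs of animals with a median of 0.167; the band limits how large it can be. It was 0.088 between C8 and F3C9, 0.449 between C14 and F3C30, 0.191 between D10 and F3D1, 0.147 between D10 and F3D31 and -0.00379 between D11 and F3D7, which are the pairs of ancestor and descendant. As seen after the values were known, C14, F3C30, F3D1, F3D7 and F3D31 resembled each other most, with r from 0.366 to 0.449 in all 10 pairs among them, across treatment lines and generations. The pairs with C8 had r from -0.00901 to 0.0961. These are correlations across CpGs within libraries, and CpGs are not independent replicates.

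The mean level over all intermediate CpGs did not separate the groups. It was 50.2% ± 0.73 (SD, n = 2) in the vehicle and 49.5% ± 0.67 (SD, n = 3) in the decitabine treated animals of the P-generation. In the F3-generation it was 49.6% ± 1.43 (SD, n = 2) in the vehicle line and 50.3% ± 0.75 (SD, n = 3) in the decitabine line. All 10 animals lay between 48.6% and 51.2%. At single CpGs the median SD over the 10 animals was 8.66 percentage points, against 5.798 from counting error.

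Groups were compared CpG by CpG with a logistic model fitted to all 628550 tested CpGs, and a CpG was called at a pooled difference of at least 25 percentage points and a Benjamini-Hochberg adjusted q under 0.01. Since members lie between 30% and 70% in every animal, no difference could exceed 40 percentage points, and the counts below are a description. Between decitabine and vehicle in the P-generation, 4 intermediate CpGs were called, which is 0.118% against 0.49% of all tested CpGs, and 687 had an unadjusted p under 0.05, against 107087 of all tested CpGs. All 4 were lower after decitabine. Without D10, D11 or D13 the members were chosen anew by the other 9 animals, and calls went in both directions. They were 4 higher and 7 lower (without D10), 5 and 10 (D11) and 5 and 9 (D13). Over all tested CpGs, 4042, 3199 and 4592 were called in the same order. With the mean of the animals' levels in place of the pooled difference, 1 was higher and 3 were lower. Between the lines of the F3-generation 0 were called, against 0.127% of all tested CpGs, and 698 had an unadjusted p under 0.05, against 101237 of all. Between the F3- and the P-generation 0 were called, against 0.0818% of all tested CpGs, with 771 at an unadjusted p under 0.05, against 124594 of all. The model has no term for the spread between animals of a group. With an overdispersion term (F test) or with limma, 0 intermediate CpGs and 0 of all tested CpGs were called in any of the comparisons. At an unadjusted p under 0.05, the F test had 72, 53 and 200 of the 3382 intermediate CpGs. Of all 628550 tested CpGs it had 7046, 7792 and 27040. By the F test and by the logistic model these shares were larger among the intermediate CpGs than among all tested CpGs. By limma they were smaller, with 36, 13 and 48 CpGs, which is 1.06%, 0.384% and 1.42% of the intermediate CpGs. Over all tested CpGs the limma shares were 5.73%, 4.04% and 6.37%.

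Of the 4 called CpGs, chr7:113204927, between genes near Arntl, a clock gene, had the largest difference. Its level was 64.5% in C8 and 62.04% in C14, and 30.5% in D10, 30.4% in D11 and 43.1% in D13, so that the groups did not overlap. The pooled difference was -28.8 percentage points (logistic model, q = 3.16e-05). In the F3-generation it was 46.4% and 52.8% in the vehicle line and 47.8%, 66.1% and 40.3% in the decitabine line, with overlapping groups. The CpG chr10:43511426 in a coding exon of Bend3, a chromatin protein, had 64.9% and 63.8% in the vehicle and 47.0%, 38.7% and 30.4% in the decitabine treated animals, a pooled difference of -25.1 percentage points (logistic model, q = 0.000171). The others were chr8:87200030, between genes, with -28.5 percentage points (logistic model, q = 0.00239), and chr11:6412565, a strand-divergent CpG near Ppia, with -26.7 percentage points (logistic model, q = 0.000528).

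Groups were free of overlap at 688 intermediate CpGs (20.3%) in the P-generation, where 8.21% of all tested CpGs were so, with 305 higher and 383 lower after decitabine. In the F3-generation this was the case at 656 (19.4%) against 9.53%, with 379 higher and 277 lower in the decitabine line. Between the generations, 30 CpGs (0.887%) did not overlap against 0.515%, 20 of them higher in the F3-generation. These counts include strand-divergent CpGs, whose level followed the share of reads from the higher strand. Among the 2246 other intermediate CpGs the numbers were 477 (21.2%) in the P-generation, 446 (19.9%) in the F3-generation and 22 (0.980%) between the generations. The median level of all tested CpGs was 0% in 8 of the 10 animals, and ties count as overlap, so these shares differ in what they could reach. At CpGs chosen by the mean of the other generation alone the groups did not overlap at 19.3% in the P- and 19.1% in the F3-generation, close to the shares of the intermediate CpGs.

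A choice that left out the compared animals put no limit on their levels. Of the 7047 CpGs chosen by the P-generation, 64 (0.908%) were called between the lines of the F3-generation, 48 higher and 16 lower in the decitabine line. Of 33392 CpGs with only their P-generation mean inside the band, 1.37% were called. Of the 9094 chosen by the F3-generation, 374 (4.11%) were called in the P-generation, 141 higher and 233 lower after decitabine, against 4.73% of 16737 with only their F3-generation mean inside the band. The share was lower among strand-divergent CpGs, with 0.202% and 1.76%. With the overdispersion term, 0 of these CpGs were called in either generation. Both kinds of choice thus lay above the 0.127% and 0.49% of all tested CpGs. The median level of all tested CpGs, however, was at most 1.14% in any animal (F3D7). A CpG near that level has little room to be lower, so the shares differ in what they could reach. Whether the chosen CpGs respond more strongly was not tested. CpGs chosen by every animal lay below those chosen by their mean, and that difference was not tested.

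Between the generations the CpG with the largest difference among those whose groups did not overlap was chr11:102611587, which lay 7191 bp from the start of Fzd2, a Wnt receptor gene. It had 35.4%, 50.9%, 35.1%, 41.1% and 48.1% in C8, C14, D10, D11 and D13, and 57.0%, 59.0%, 68.6%, 65.6% and 67.1% in F3C9, F3C30, F3D1, F3D7 and F3D31. The pooled difference was 22.6 percentage points, under the 25 that a call needed (logistic model, q = 1.66e-07, and q = 0.895 with the overdispersion term). The CpG chr3:90537995 at the start of S100a16, a calcium-binding protein gene, had 31% to 42.7% in the P- and 46.7% to 59.3% in the F3-generation. In the other direction, chr15:38238858, 19655 bp from the start of Odf1, a sperm tail gene, had 48.9% to 69.2% in the P- and 33.3% to 47.5% in the F3-generation (logistic model, q = 0.0152). Generation and treatment of the P animals cannot be told apart from the time of sampling.

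The least variable CpGs were not all deeply covered. The CpG chr2:132649782 in the noncoding gene AU019990 had 40.7% to 45.8% in the 10 animals at 64 to 237 reads, an SD of 1.93 percentage points, which is less than the 4.64 that counting gave. The most variable was chr8:121377928, with an SD of 15.3 percentage points and 31.03% to 70%, at 27 to 87 reads. A CpG in an intron of Itpr1, the calcium channel of intracellular stores, at chr6:108456852 ranged from 30.9% in C8 to 62.7% in C14 in the P-generation and from 54.6% in F3C9 to 69.9% in F3D7 in the F3-generation. At the edges of the band, members reached 30% and 70% exactly, and the nearest CpGs outside had their lowest or highest animal at 29.9% and 70.1%.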

How the data were processed

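The deposited files gave, per the file headers, the methylated and unmethylated read count of each CpG cytosine in each of 10 animals, each strand on its own line. According to the submitters' processing notes the authors had used CASAVA 1.8.2, Trim Galore 0.3.3, cutadapt 1.1 and Bismark 0.10.1 with mm10, and, by the study's methods, had removed adapters and MspI bases at 3′ ends after sequencing of gel-selected MspI fragments. The read length is not given in the sources used here. The counts were not normalized.

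Positions were read on GRCm38, the sequence of mm10, and strands were summed. CpGs of 19 autosomes with at least 20 reads in all 10 animals were kept. The level was the share of methylated reads. Members, lists and comparisons were chosen with earlier results of these data known. Strand classes used CpGs with 100 reads per strand and limits of 20 and 50 percentage points; they were defined after the data had been seen. Annotation came from GENCODE M21. Somatic markers were read within 500 bp of the gene's start. Groups were tested per CpG by the likelihood ratio of a logistic model, adjusted over all 628550 CpGs. Alternatives were an F test with overdispersion, limma on log2 ratios with 1 added to each count, other limits, thinning to 20 reads, leaving out each animal and the ancestor as a block. Named clusters were the 12 with the most members and named genes the 10 with the most members within 1000 bp of a start, ties taken in order of position or name, and named CpGs those with the largest differences, the lowest or the highest SD. Gene lists were imprinted, DNA methylation enzyme, piRNA, germ-cell and meiosis, Hox and Zfp genes. Displayed pairs were picked after their values were seen. In simulated counts, of 100 CpGs changed by 40 percentage points 97% were recovered in the P-generation comparison, and 33% of 100 changed by 25. In the same counts 0 of the unchanged CpGs were called. The simulated counts had counting error but no spread between animals of a group, so they cannot show how such spread affects the calls. Groups of 2 and 3 animals measure the spread between these animals only. Python 3.11.15, numpy 2.4.6, scipy 1.17.1, pandas 2.3.3, matplotlib 3.10.9, R 4.3.3 and limma 3.58.1 were used.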

Additional observations from a re-analysis of the deposited data

Results flagged for a closer look

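Among the sample values tested for an outlying animal, 12 groups of 5 animals in all, the mean level of the strand-divergent intermediate CpGs in the F3-generation was set apart in F3D7, with 51.1% against 49.8% to 50% in the other 4 animals. Chance alone sets apart about 1 in 20 such groups. The difference between decitabine and vehicle differed between the generations at 60 intermediate CpGs (1.77%; interaction term of the logistic model, Benjamini-Hochberg adjusted q under 0.01), against 2.31% of all tested CpGs; of the 60, 46 were not strand-divergent. On the X chromosome, which the rule left out and of which a male has 1 copy, 15 of 4485 CpGs with enough reads met the same limits in all 10 animals (0.334%, autosomes 0.538%). Of these 15, 6 were strand-divergent and 9 were not (0.201%, autosomes 0.357%).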

How the results depend on the processing

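Of 128 alternative values, 54 stayed within the limits set for a change and 74 did not; the cause was not tested beyond what each alternative leaves out. The number of intermediate CpGs, 3382, became 1223 at 50 or more reads, 7997, 921 and 96 with bands of 25% to 75%, 35% to 65% and 40% to 60%, and 2028 with 10 or more reads on each strand. Leaving out 1 animal gave 3562 to 5511, the highest without C8. The alternatives on strands were chosen after seeing the data: 2246 CpGs were left without the strand-divergent ones, 1138 outside CCGG and 1105 with each strand inside the band. The share with another intermediate CpG near, 42.7% at 100 bp, was 39.21% at 50 bp, 44.56% at 300 bp, 26.82% with the band of 35% to 65% and 34.77% without strand-divergent CpGs. The share kept from P to F3, 47.99%, was 54.8% and 61.43% at 30 and 50 reads, 54.62% and 34.38% with the wider and the narrower band, 40.4% without strand-divergent CpGs, and 33.48% (without C14) to 55.97% (without F3C9) without 1 animal. From F3 to P, 37.19% became 43.08%, 50.02%, 51.71%, 21.8% and 31.6% in the same order, and 34.49% to 55.02% (without C8) without 1 animal.

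The 4 calls of the P-generation became 0 after thinning to 20 reads, with the F test and with limma, 63 at a limit of 10 percentage points, and 4 to 44 without 1 animal (44 without C14, 19 without C8), where the members are chosen anew by 9 animals. Over all tested CpGs, the 3077 calls became 13516 at 10 percentage points, 22152 without C14 and 2019 without C8. The 0 calls of the F3-generation became 47 at 10 percentage points and 0 to 40 without 1 animal (40 without F3C30), while those over all tested CpGs went from 801 to 6048 and, without F3C30, 6264. Between generations, 0 calls became 116 at 10 percentage points and 0 to 4 (4 without C14), with 15153 and 2115 over all tested CpGs in place of 514. With the narrower window, gene starts held 0.887%, coding exons 15.64% and other exons 2.898%, against 20.1%, 16.5% and 12.1% of all tested CpGs. Without strand-divergent CpGs, gene starts held 7.124%, coding exons 15.41%, introns 24.98% and intergenic sequence 43.01%. No paired analysis was possible within a generation because the groups compared share no replicate numbers. Between generations, a fit with the ancestor as a block, chosen after seeing the data and resting on the study's pedigree, called 1 intermediate CpG and 932 of all tested CpGs in the 9 animals of 4 lines (D13 left out), and without the block the same 9 animals gave 1 and 932. Groups of 2 and 3 animals and 50 to 132 reads per CpG limit the size of a difference that can be seen.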
